A study of Mus musculus with 12 samples.

Results

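The expression of 9 genes of the fibroblast growth factor (FGF) family was examined in W-20 cells, a murine bone marrow stromal cell (BMSC) line. The members were chosen by gene symbol and comprise the ligands *Fgf2*, *Fgf7*, *Fgf10*, *Fgf18* and *Fgf21*, the receptors *Fgfr1*, *Fgfr2* and *Fgfr3*, and the receptor-like gene *Fgfrl1*, out of 56980 genes in the deposited matrix. The study asked how parathyroid hormone (PTH) acts on the transcriptional coactivator YAP in these cells. Bulk poly-A RNA-Seq was available for 12 libraries, 3 in each of 4 groups. WT cells had unmodified YAP, and Y428F cells carried a Flag-tagged YAP plasmid with the tyrosine of the label replaced by phenylalanine and were grown from clones selected with puromycin. Each line was exposed for 2 hours to 50 nM PTH or to the PBS vehicle. The depth was even, with 17127897 to 19057319 counts per library (median 17740980).

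Several features of the groups limit what can be compared. The titles of the Y428F libraries name the tyrosine substitution alone and their genotype field reads WT. The study's text gives the sequenced cells as carrying, on the same YAP, a further change of serine to alanine at a site phosphorylated by the Hippo kinase LATS1, so the Y428F label stands here for both changes. Libraries of a line given wild-type YAP by the same route were not analysed here, and plasmid, clone and either substitution cannot be told apart. The labels do not say whether replicates came from separate cultures, and the study describes its data in general as coming from independent experiments. The p-values measure the spread between these libraries, which may be technical where a culture was shared.

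Stromal marker genes were abundant in both lines, with *Col1a2* the highest at a mean of 9997 CPM (reads scaled to a common library size by TMM and given in parts per 1000000). Of the 11 stromal markers, *Thy1* had 0 counts in all 12 libraries and *Nt5e* had at most 2. The summed level of these markers was 22746 ± 1918 CPM (SD, n = 3) in WT cells with vehicle and 14678 ± 590 CPM in Y428F cells with vehicle. It was 22372 ± 1603 CPM and 12332 ± 1434 CPM with PTH in WT and Y428F cells. Between the lines with vehicle, 8 of the 9 stromal markers tested were lower in Y428F cells and *Ly6a* was higher, with a median log2 fold change of -0.75, where 45.1% of all genes were called. Markers of other cell types were sparse: with vehicle, the 5 hematopoietic markers summed to 7.43 ± 0.321 CPM for WT and to 14.4 ± 0.230 CPM for Y428F, the 4 endothelial markers to 1.42 ± 0.453 and 8.91 ± 1.00 CPM, and the 5 epithelial markers to 0.641 ± 0.3001 and 3.87 ± 0.883 CPM. The 4 adipocyte markers summed to 27.1 ± 5.92 CPM and 6.84 ± 0.660 CPM, nearly all from *Fabp4*, and *Adipoq* had 0 counts. The 6 markers of mature osteoblasts and osteocytes summed to 0.925 ± 0.0358 CPM and 2.25 ± 0.626 CPM, most of it *Phex*. In bulk RNA, fewer cells of a type and less RNA per cell cannot be told apart.

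Most FGFs are secreted proteins that bind receptor tyrosine kinases together with heparan sulfate, a sugar chain of the cell surface and matrix. Hormone-like members, including FGF21, bind heparan sulfate weakly and use a klotho protein as coreceptor instead. Activated receptors signal largely through the adaptor FRS2 and the RAS and ERK cascade, and the pathway induces its own inhibitors, the Sprouty, Spred and dual-specificity phosphatase genes. In bone, FGF signaling is known to regulate stromal proliferation, osteoblast differentiation and growth plate cartilage, and *Fgfr3* is the gene mutated in achondroplasia.

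Of the 9 genes, 7 reached the minimum of 10 counts over the libraries of the fit, and *Fgf10* and *Fgf18* did not. In WT cells, PTH raised the mRNA of *Fgf7*, an epithelial mitogen also called keratinocyte growth factor, and of *Fgfr2*, whose IIIb form is its receptor. Both genes also rose in Y428F cells. *Fgf21* was called lower with PTH in Y428F cells (log2 -0.67), a call that 3 of the 6 libraries each decided, and its WT estimate of -0.79 did not pass. Between the lines the largest differences among the 7 were in the ligands: with vehicle, *Fgf7* in Y428F cells was 0.254 of its WT level and *Fgf21* was 7.88-fold higher.

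The sequences upstream of these ligands are shown because they carry the largest differences. Promoters were taken from RefSeq on GRCm38.p6, in which 8 of the 9 genes were matched and *Fgfr1* was not. The 250 bases before the annotated start of *Fgf7* are at chr2:126034408-126034657 on the plus strand, and those of *Fgf21* at chr7:45615491-45615740 on the minus strand, each written 5′ to 3′ with motif matches in capitals.
Fgf7: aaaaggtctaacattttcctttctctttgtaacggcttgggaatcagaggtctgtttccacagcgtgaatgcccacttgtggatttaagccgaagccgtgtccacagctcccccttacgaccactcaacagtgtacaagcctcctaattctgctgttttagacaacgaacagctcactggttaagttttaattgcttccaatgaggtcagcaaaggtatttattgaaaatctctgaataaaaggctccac
Fgf21: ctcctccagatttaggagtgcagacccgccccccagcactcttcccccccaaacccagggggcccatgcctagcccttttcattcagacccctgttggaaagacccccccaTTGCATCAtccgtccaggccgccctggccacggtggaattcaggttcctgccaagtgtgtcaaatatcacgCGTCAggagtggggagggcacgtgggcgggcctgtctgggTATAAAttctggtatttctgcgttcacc
Windows from 250 bases before to 50 bases after the start were searched on both strands. The cAMP response element TGACGTCA was in 1.79% of 32851 RefSeq windows and in none of those of the matched members. Its shorter form TGACG, which the full element contains, was in 20.81% of windows, among them *Fgf21* at -68 and *Fgf2* at -140 and -6. The TEAD motif GGAATG, named for the DNA-binding partners of YAP, was in 14.66% of windows and in none of the matched members. *Fgf21* also held the amino acid response element TGATGCAA at -139, found in 0.89% of windows, and TATAAA at -28, found in 13.62%. These last motifs were chosen after the sequence had been read. No searched motif was in the *Fgf7* window. A match is a description of the letters and not evidence of binding.

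*Fgf7* (ENSMUSG00000027208.15, GRCm39 chr2:125876578-125934218, plus strand) stood at 45.17, 39.07 and 38.64 CPM in the WT vehicle libraries and at 79.65, 78.67 and 81.70 CPM in the WT PTH libraries. In Y428F cells it was 11.94, 10.26 and 8.96 CPM with vehicle and 16.92, 16.90 and 18.78 CPM with PTH. The 4 groups did not overlap: both PTH groups lay above their vehicle group, and both Y428F groups lay below both WT groups. With PTH, *Fgf7* rose 1.96-fold in WT cells (log2 fold change 0.97 ± 0.0783 (SE), adjusted p = 3.77e-06) and 1.69-fold in Y428F cells (0.76 ± 0.101, adjusted p = 3.36e-05). Here and below, adjusted p-values come from the quasi-likelihood test of edgeR, with the Benjamini-Hochberg method applied to all genes tested, and a gene was called at an adjusted p under 0.05. Y428F cells had 0.254 of the WT level with vehicle (log2 -1.98 ± 0.0947, adjusted p = 7.18e-13) and 0.219 of it with PTH (log2 -2.19 ± 0.0880, adjusted p = 4.94e-14). These comparisons share libraries, so they are not independent of each other.

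*Fgf21* (ENSMUSG00000030827.6, GRCm39 chr7:45263301-45266963, minus strand), an endocrine FGF known as a metabolic and stress hormone, was near the lower end of the measured genes in WT cells. It had 2.59, 1.54 and 1.45 CPM in the WT vehicle libraries and 1.24, 0.49 and 1.46 CPM in the WT PTH libraries, which were 8 to 49 counts. Y428F cells had 14.62, 14.41 and 15.24 CPM with vehicle and 7.93, 8.59 and 11.24 CPM with PTH. The Y428F libraries were thus all above the WT libraries, and within the Y428F line the PTH libraries were all below the vehicle libraries. The level in Y428F over WT cells was 7.88-fold with vehicle (log2 2.98 ± 0.211, adjusted p = 3.09e-10) and 8.60-fold with PTH (log2 3.10 ± 0.247, adjusted p = 1.66e-09). PTH lowered *Fgf21* to 0.628 of its vehicle level in Y428F cells (log2 -0.67 ± 0.171, adjusted p = 0.0119). That call was lost without Y428F vehicle replicate 3 (log2 -0.65, adjusted p = 0.0552), Y428F PTH replicate 1 (-0.57, adjusted p = 0.0677) or Y428F PTH replicate 2 (-0.62, adjusted p = 0.0526). In WT cells the groups overlapped and the log2 fold change of -0.79 ± 0.399 did not pass (adjusted p = 0.241, 95% interval -1.65 to 0.07). *Fgf21* shares 18.0% of its exon length with *Fut1* on the opposite strand, and *Fut1* had at most 8 counts in any library against up to 285 for *Fgf21*. From these few counts *Fut1* was also called higher in Y428F cells, by a log2 of 4.57 with vehicle (adjusted p = 0.0200) and 3.41 with PTH (adjusted p = 0.0246). Its WT group means were 0 and 0.0194 CPM, so it reached the minimum through the Y428F libraries and these values are a description.

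*Fgf2* (ENSMUSG00000037225.14, GRCm39 chr3:37402473-37464257, plus strand), the basic FGF and a mitogen of stromal cells, was low and similar among the groups. It was 5.09 ± 0.651 CPM in WT cells with vehicle and 4.54 ± 0.387 CPM with PTH, and 5.61 ± 0.881 and 4.76 ± 0.492 CPM in Y428F cells (SD, n = 3). No comparison of *Fgf2* passed and its groups overlapped throughout. The log2 fold change with PTH was -0.16 in WT cells (95% interval -0.51 to 0.20) and -0.24 in Y428F cells (-0.57 to 0.09), and between the lines it was 0.14 with vehicle (-0.19 to 0.47). Exons of *Nudt6* on the opposite strand cover 44.7% of the exon length of *Fgf2*. It is not settled in the labels whether the libraries kept strand, so the counts of the overlapping genes may not be separate. *Nudt6* itself had 19 to 55 counts per library and no comparison of it passed.

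The other ligands were at the limit of detection. *Fgf10*, a mesenchymal ligand of the FGFR2 IIIb form, had 1 count in WT PTH replicate 3 and 0 in the other 11 libraries. *Fgf18*, known for its role in bone and cartilage development, had 5 counts in 4 libraries with at most 2 in any. A count of 0 allows up to 3 counts, or 0.157 to 0.175 CPM in these libraries by depth, an allowance for counting error only. Neither gene was tested.

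**Figure D1:**
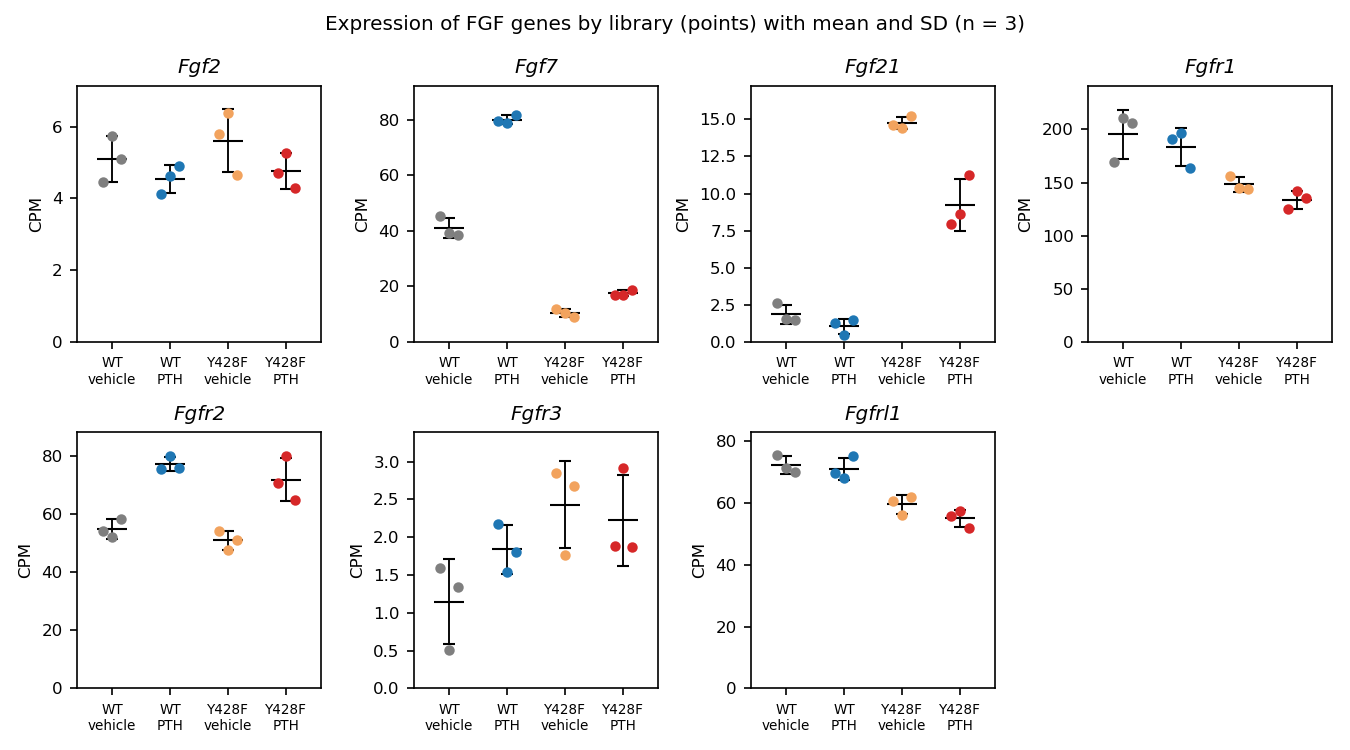
Expression of the 7 FGF genes that were tested, in CPM on a linear axis from 0, with a point for each library and the mean and SD of each group of 3. *Fgf7* separates the 4 groups, *Fgf21* is at 7.93 CPM or more in each Y428F library and at 2.59 CPM or less in each WT library, and *Fgfr2* is higher with PTH in both lines.

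*Fgfr1* (ENSMUSG00000031565.19, GRCm39 chr8:26003670-26066824, plus strand), the usual principal FGF receptor of mesenchymal cells, was the most abundant member. It was 169.14, 211.22 and 206.01 CPM in WT cells with vehicle and 190.91, 196.41 and 163.51 CPM with PTH. In Y428F cells it was 156.30, 144.74 and 144.16 CPM with vehicle and 124.74, 141.58 and 135.12 CPM with PTH. Each Y428F group lay below the WT group of the same treatment, with vehicle by a log2 fold change of -0.40 ± 0.0802 (0.759-fold, adjusted p = 0.000344) and with PTH by -0.46 ± 0.0808 (0.729-fold, adjusted p = 8.31e-05). The change with PTH did not pass in WT cells (log2 -0.08, 95% interval -0.27 to 0.10) or in Y428F cells (-0.15, -0.32 to 0.02), although the Y428F libraries did not overlap.

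*Fgfr2* (ENSMUSG00000030849.19, GRCm39 chr7:129763471-132725079, minus strand) was the receptor that moved with PTH. It was 54.26, 51.98 and 58.49 CPM in WT cells with vehicle and 75.47, 79.97 and 76.05 CPM with PTH, and 54.05, 47.62 and 51.17 CPM in Y428F cells with vehicle and 70.72, 80.00 and 65.05 CPM with PTH. The PTH libraries lay above the vehicle libraries in both lines, without overlap. The rise was 1.41-fold in WT cells (log2 0.50 ± 0.0697, adjusted p = 0.000466) and 1.41-fold in Y428F cells (log2 0.50 ± 0.0737, adjusted p = 0.000101). Between the lines the groups overlapped, and the log2 fold change was -0.11 with vehicle (95% interval -0.26 to 0.05) and -0.10 with PTH (-0.25 to 0.05). Without Y428F PTH replicate 2, the latter passed at -0.20 (adjusted p = 0.0301). The annotated exons of *Fgfr2* share 4.3% of their length with *Ctbp2* on the same strand, and *Ctbp2* was not called with PTH in WT cells (log2 0.14, adjusted p = 0.226) or in Y428F cells (-0.07, adjusted p = 0.532). Gene counts do not separate the IIIb and IIIc forms of the receptors, which differ in the ligands they bind.

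*Fgfr3* (ENSMUSG00000054252.19, GRCm39 chr5:33879018-33894412, plus strand) was barely expressed, at 9 to 52 counts per library. It was 1.59, 0.51 and 1.34 CPM in WT cells with vehicle, 2.18, 1.54 and 1.81 CPM with PTH, 2.85, 1.77 and 2.68 CPM in Y428F cells with vehicle, and 1.89, 2.92 and 1.87 CPM with PTH. With vehicle the lines did not overlap and Y428F cells were 2.09-fold higher (log2 1.07 ± 0.327, adjusted p = 0.0111). The call was lost without WT vehicle replicate 2 (log2 0.72, adjusted p = 0.0676) or Y428F vehicle replicate 1 (log2 0.93, adjusted p = 0.0536). With PTH the lines overlapped and the difference of 0.27 did not pass (95% interval -0.39 to 0.93). The change with PTH was 0.68 in WT cells (-0.14 to 1.496) and -0.12 in Y428F cells (-0.75 to 0.51), and neither passed.

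*Fgfrl1* (ENSMUSG00000008090.15, GRCm39 chr5:108840206-108858366, plus strand) encodes a receptor that binds FGFs but lacks the intracellular kinase domain. It was 75.52, 71.43 and 70.14 CPM in WT cells with vehicle and 69.69, 68.16 and 75.18 CPM with PTH. Y428F cells had 60.63, 56.11 and 62.09 CPM with vehicle and 55.91, 57.32 and 52.05 CPM with PTH. Again the Y428F libraries were below the WT libraries under both treatments, with a log2 fold change of -0.28 ± 0.0625 with vehicle (0.823-fold, adjusted p = 0.000889) and -0.37 ± 0.0632 with PTH (0.776-fold, adjusted p = 6.22e-05). With PTH its log2 fold change was -0.02 for WT (95% interval -0.17 to 0.13) and -0.11 for Y428F cells (-0.25 to 0.02), and neither passed.

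Levels of different genes were compared per kilobase of merged annotated exons, and the order of close genes depends on that choice. Merged exons span 7260 bases for *Fgfr2* and 6936 for *Fgfrl1*, and their longest transcripts 5642 and 6532. The order of these 2 genes below therefore holds for merged exons only. In WT cells with vehicle, *Fgfr1* led with 24.1 ± 2.83 CPM per kb (SD, n = 3), followed by *Fgfrl1* with 10.4 ± 0.406, *Fgf7* with 9.54 ± 0.851 and *Fgfr2* with 7.56 ± 0.455 CPM per kb. *Fgfrl1* and *Fgf7* overlapped in their ranges, so their order was not resolved. *Fgf21* at 1.36 ± 0.467, *Fgf2* at 0.774 ± 0.0989 and *Fgfr3* at 0.257 ± 0.126 CPM per kb came last of the 7 genes tested. With PTH in WT cells, *Fgf7* stood next to *Fgfr1* at 18.6 ± 0.359 CPM per kb, and *Fgfr2* at 10.6 ± 0.337 overlapped with *Fgfrl1* at 10.2 ± 0.532. In Y428F cells with vehicle the place after *Fgfr1* (18.3 ± 0.844 CPM per kb) belonged to *Fgf21* at 10.8 ± 0.315, above *Fgfrl1* at 8.59 ± 0.449, *Fgfr2* at 7.02 ± 0.444 and *Fgf7* at 2.42 ± 0.348 CPM per kb. In Y428F cells with PTH, *Fgfr2* at 9.91 ± 1.04 came after *Fgfr1* at 16.5 ± 1.05 CPM per kb, and *Fgfrl1* at 7.94 ± 0.393 overlapped with *Fgf21* at 6.79 ± 1.28 CPM per kb. The ratio of *Fgfr1* to *Fgfr2* per kb was 3.19 ± 0.425 in WT cells with vehicle and 2.13 ± 0.180 with PTH. It was 2.61 ± 0.101 in Y428F cells with vehicle and 1.67 ± 0.160 with PTH, with no overlap between the treatments in either line.

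For PTH in WT cells, 2 of the 7 genes tested were called, both higher, where 11.8% of 15583 genes were called (6.88% higher and 4.91% lower). In Y428F cells 2 were called higher and 1 lower, where 12.4% of 17691 genes were called (6.61% higher and 5.78% lower). The median log2 fold change of the 7 genes was -0.02 in WT cells and -0.12 in Y428F cells, against -0.01 over all genes tested in each line. Among all genes, 1072 were called higher and 765 lower in WT cells, and 1170 and 1022 in Y428F cells. When libraries were scaled by their totals alone, these became 744 and 1216 in WT cells and 888 and 1445 in Y428F cells, whereas the calls of the 7 genes did not change.

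**Figure D2:**
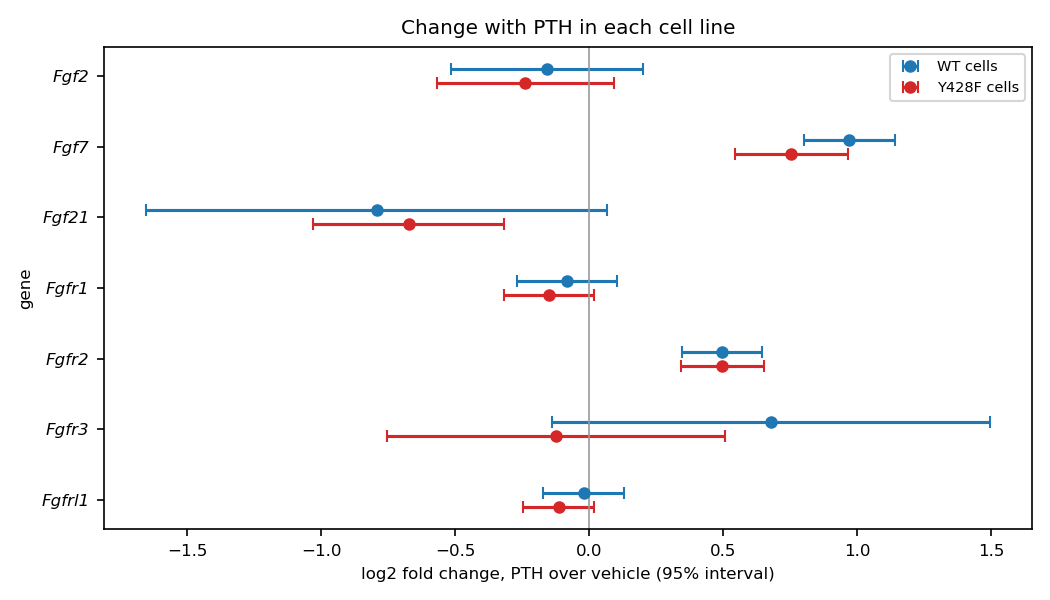
Log2 fold change of each tested FGF gene with PTH over vehicle in WT and Y428F cells, with 95% intervals, on the horizontal axis. *Fgf7* and *Fgfr2* lie to the right of 0 in both lines, *Fgf21* lies to the left of 0 with an interval that includes 0 in WT cells, and the intervals of the other 4 genes include 0.

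The response to PTH was compared between the lines by an interaction term. None of the 7 genes was called by edgeR's quasi-likelihood test or by DESeq2, and none had an unadjusted p under 0.05, where 0.413% of 17691 genes were called by edgeR (0.170% higher and 0.243% lower). For *Fgf7* the log2 response in Y428F minus that in WT cells was -0.21 ± 0.130 (95% interval -0.48 to 0.06, adjusted p = 0.824). For *Fgfr2* it was 0.01 ± 0.104 (-0.21 to 0.22, adjusted p = 1.00), an interval narrower than the rise of 0.50 itself. For *Fgf21* it was 0.13 ± 0.349 (-0.60 to 0.85) and for *Fgfr3* -0.79 ± 0.455 (-1.75 to 0.16), and these wide intervals leave a difference in response undetermined at this depth. The intervals were -0.30 to 0.18 for *Fgfr1*, -0.27 to 0.10 for *Fgfrl1* and -0.55 to 0.40 for *Fgf2*. A p that misses the limit does not show that the lines respond alike.

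Between the lines, 5 of the 7 genes were called with vehicle (2 higher and 3 lower in Y428F cells), where 45.1% of genes were called (22.4% higher and 22.7% lower). With PTH, 4 were called (1 higher and 3 lower), where 45.7% were called (22.8% higher and 23.0% lower). The median log2 fold change of the 7 genes was -0.11 with vehicle and -0.10 with PTH, against 0.01 and 0.02 over all genes tested. The members were also set beside the median log2 fold change of their chromosome, over its genes with at least 4 CPM. It covers the whole chromosome, so the region around a gene was not examined. For vehicle this median was -0.06 on chromosome 2 over 841 genes, where *Fgf7* lies, and 0.00 on chromosome 7 over 754 genes, where *Fgf21* and *Fgfr2* lie. On chromosome 8, where *Fgfr1* lies, it was -0.13 over 589 genes, so that *Fgfr1* was -0.26 from the median of its chromosome. *Fgfrl1*, on chromosome 5 with a median of -0.02 over 675 genes, was likewise -0.26 from it. *Fgf2*, on chromosome 3 with a median of -0.17 over 530 genes, was 0.32 from that median. With vehicle 8 of 9 stromal markers were lower in Y428F cells, as were *Fgf7*, *Fgfr1* and *Fgfrl1*, while *Ly6a* was higher, and the part of the stromal markers in these differences was not tested.

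**Figure D3:**
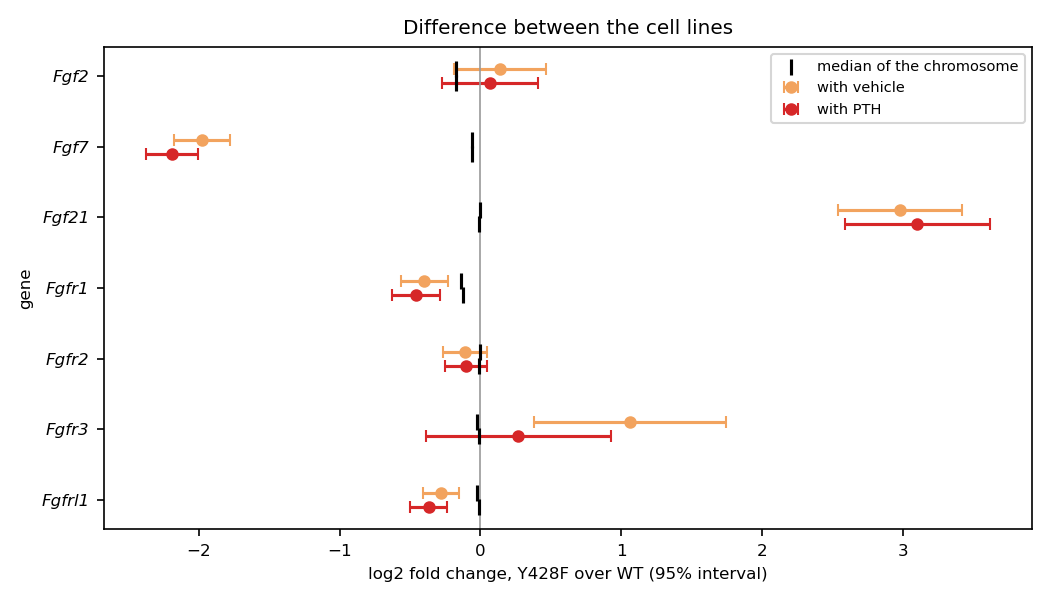
Log2 fold change of each tested FGF gene in Y428F over WT cells, with vehicle and with PTH, with 95% intervals and, as black ticks, the median of the genes of the same chromosome with at least 4 CPM. *Fgf7* is at -1.98 and -2.19 and *Fgf21* at 2.98 and 3.10, the intervals of *Fgfr1* and *Fgfrl1* lie below 0, and those of *Fgf2* and *Fgfr2* include 0.

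Apart from the members, 17 further genes of the FGF family were listed, of which 8 had 0 counts in all 12 libraries and 16 had at most 15 counts in any. Over the WT libraries 4 of them reached the minimum for testing and over the 12 libraries 6 did. None was called with PTH in either line by edgeR or DESeq2, where edgeR called 11.8% of all genes in WT cells and 12.4% in Y428F cells. Nor did any have an unadjusted p under 0.05. Between the lines 3 of the 6 were called under both treatments, where 45.1% of all genes were called with vehicle and 45.7% with PTH. *Fgf1* and *Fgf14*, 2 of the 3, reached the minimum through the libraries of 1 line alone, so that they had to differ, and their values are a description. With vehicle the 3 calls became 2 with DESeq2, 1 without WT vehicle replicate 2, and 2 without WT vehicle replicate 3 or Y428F vehicle replicate 2. *Fgf11*, an intracellular FGF homologous factor and not a secreted ligand, was the only gene of this list with a mean of at least 0.5 CPM. It had 34, 51 and 42 counts in WT cells with vehicle and 33, 39 and 26 with PTH. In Y428F cells it had 22, 21 and 21 counts with vehicle and 15, 16 and 6 with PTH. Its log2 fold change between the lines was -1.02 ± 0.307 with vehicle (adjusted p = 0.00962) and -1.498 ± 0.340 with PTH (adjusted p = 0.00104). *Fgf1* and *Fgf14* were named after their values were seen. *Fgf1* had 3 to 9 counts in each WT library and 1 count in all 6 Y428F libraries together. *Fgf14* had 0 to 3 counts in WT and 4 to 15 counts in Y428F libraries. The receptor *Fgfr4* and the coreceptors *Kl* and *Klb* had at most 4 counts in any library and were not tested, so transcript of the β-klotho that FGF21 signaling requires was not detectable above the floor in most libraries.

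Of the 15 genes that carry FGFs or that build, modify or cleave the heparan sulfate they bind, 13 were tested. With PTH 3 rose in WT cells, where 11.8% of all genes were called, and 2 rose in Y428F cells, where 12.4% were called, and none fell (median log2 fold change 0.02 and 0.03, against -0.01 over all genes in each line). Without 1 library the number was 1 to 3 in WT cells and 1 to 2 in Y428F cells. *Hs6st1*, a sulfotransferase of heparan sulfate, went from 42.3 ± 2.14 to 58.6 ± 2.22 CPM with PTH in WT cells (log2 0.48 ± 0.0736, adjusted p = 0.000979). In Y428F cells its log2 fold change of 0.18 did not pass (adjusted p = 0.101), nor did the difference in response (-0.29, adjusted p = 0.453). *Ext1*, which polymerizes the chain, rose from 91.2 ± 5.80 to 111 ± 5.52 CPM in WT cells (0.29 ± 0.0654, adjusted p = 0.0124) and from 91.4 ± 1.73 to 115 ± 5.68 CPM in Y428F cells (0.33 ± 0.0604, adjusted p = 0.000845). The WT call of *Ext1* was lost without vehicle replicate 2, PTH replicate 1 or PTH replicate 2 (adjusted p up to 0.0658). *Glce*, the epimerase of the chain, rose by a log2 of 0.32 in WT cells (adjusted p = 0.00909), lost without PTH replicate 2 (0.28, adjusted p = 0.0526). Its 0.18 in Y428F cells (adjusted p = 0.0427) was lost without any of the 6 Y428F libraries (adjusted p up to 0.167) and with library totals as the scale (0.14, adjusted p = 0.112).

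Between the lines 4 of these 13 genes were higher and 3 lower in Y428F cells with vehicle, and 5 higher and 4 lower with PTH, where 45.1% and 45.7% of all genes were called. *Fgfbp1*, a secreted protein that releases FGFs from the matrix, stood apart with 307 counts summed over the 3 Y428F vehicle libraries against 8 over the WT libraries, a scaled ratio of 37.5 (95% counting interval 18.8 to 87.7). With PTH these were 384 and 12 counts, a ratio of 29.9 (16.9 to 58.3), and the log2 fold changes were 5.16 ± 0.340 (adjusted p = 1.01e-10) and 4.86 ± 0.310 (adjusted p = 5.91e-11). *Ndst2*, a heparan sulfate deacetylase and sulfotransferase, was lower in Y428F cells, at 33.7 ± 2.85 against 64.3 ± 6.81 CPM with vehicle (log2 -0.93 ± 0.0893, adjusted p = 2.64e-08) and by -1.14 with PTH. *Hs6st1* was higher, by a log2 of 0.61 with vehicle and 0.33 with PTH (adjusted p = 5.42e-07 and 0.000722). *Ext2*, the partner of *Ext1*, was lower by -0.40 with vehicle and -0.36 with PTH (adjusted p = 2.05e-06 and 7.34e-06), and *Ndst1* by -0.32 and -0.35 (adjusted p = 0.000887 and 0.000385). The carrier *Fgfbp3* was 0.76 higher with vehicle (adjusted p = 0.0262), a call lost without WT vehicle replicate 1 or 3 or Y428F vehicle replicate 1 or 2 (adjusted p up to 0.117).

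All 19 receptor adaptors and ERK cascade genes were tested. With PTH 4 rose in WT cells, and 3 rose and 1 fell in Y428F cells (median log2 fold change 0.09 and 0.08), beside 11.8% and 12.4% of all genes called. Without 1 library the number of calls was 2 to 4 in WT cells and 1 to 4 in Y428F cells. In WT cells *Nras*, a small GTPase above the ERK cascade, rose from 58.8 ± 2.17 to 75.2 ± 2.34 CPM (log2 0.36 ± 0.0663, adjusted p = 0.00312). *Hras* had 0.27 (adjusted p = 0.0433), which was lost with library totals as the scale and without any of the WT libraries except vehicle replicate 1 (adjusted p up to 0.149). *Frs2*, the docking protein of FGF receptors, rose by 0.32 in WT cells (adjusted p = 0.0102) and by 0.27 in Y428F cells (adjusted p = 0.0109), calls lost without WT PTH replicate 1 or 2 (adjusted p up to 0.0549) and without Y428F vehicle replicate 2 (0.23, adjusted p = 0.0621). In Y428F cells *Nras* rose by 0.25 (adjusted p = 0.00371). *Frs3*, the related docking protein, had -0.51 (adjusted p = 0.0158), a call lost without Y428F vehicle replicate 2 or 3 or PTH replicate 1 or 3 (adjusted p up to 0.0802).

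In the same list 5 genes were higher and 5 lower in Y428F cells with vehicle, and 4 and 5 with PTH, beside 45.1% and 45.7% of all genes called. The largest of these differences was in *Shc1*, an adaptor of receptor tyrosine kinases, at 297 ± 2.79 CPM in Y428F against 640 ± 50.8 CPM in WT cells with vehicle (log2 -1.11 ± 0.0575, adjusted p = 2.37e-12) and at 285 ± 3.28 against 586 ± 11.7 CPM with PTH (-1.04 ± 0.0575, adjusted p = 6.62e-12). *Nras* was higher in Y428F cells by 0.37 with vehicle and 0.27 with PTH (adjusted p = 1.36e-05 and 0.000421). *Frs3* was lower by -0.44 with vehicle and -0.72 with PTH (adjusted p = 0.00659 and 0.000162). *Plcg1*, a phospholipase bound by FGF receptors, was lower by -0.29 with vehicle and -0.41 with PTH (adjusted p = 0.00156 and 4.61e-05), and *Mapk3*, which encodes ERK1, by -0.25 and -0.27 (adjusted p = 0.00102 and 0.00052).

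Among the feedback inhibitors and targets of FGF and ERK signaling, the calls with PTH went in both directions. Of the 18 genes listed, 16 were tested in WT cells, of which 1 was higher and 2 were lower with PTH, where 11.8% of all genes were called. In the fit of 12 libraries 17 were tested, of which 4 were higher and 3 lower with PTH in Y428F cells, where 12.4% were called (median log2 fold change 0.15 in WT and -0.09 in Y428F cells). Leaving out 1 library gave 2 calls in WT cells, except 5 without vehicle replicate 1, and 4 to 6 in Y428F cells, with the lowest number without vehicle replicate 2, PTH replicate 1 or PTH replicate 2. *Dusp5*, a phosphatase of nuclear ERK, rose in both lines: it was 5.71, 6.60 and 6.71 CPM in WT cells with vehicle and 14.98, 14.46 and 14.44 CPM with PTH, and 8.65, 7.18 and 7.43 CPM in Y428F cells with vehicle and 20.13, 18.47 and 19.17 CPM with PTH. The vehicle and PTH libraries did not overlap in either line, and the rise was 2.32-fold in WT (log2 1.21 ± 0.110, adjusted p = 1.2e-05) and 2.49-fold in Y428F cells (1.31 ± 0.101, adjusted p = 3.12e-08). *Dusp6*, the phosphatase of cytoplasmic ERK, rose in Y428F cells from 11.8 ± 0.897 to 18.6 ± 1.29 CPM (log2 0.65 ± 0.108, adjusted p = 0.000334), whereas in WT cells its log2 fold change of 0.24 did not pass (adjusted p = 0.210), and the difference between these responses did not pass either (adjusted p = 0.514). *Spry1*, a Sprouty inhibitor of receptor signaling, fell with PTH in WT cells to 0.563 of its vehicle level (log2 -0.83 ± 0.0870, adjusted p = 4.11e-05). *Spred3* fell in Y428F cells (-0.70 ± 0.110, adjusted p = 0.000202) and had -0.37 in WT cells (adjusted p = 0.0257), a call lost with DESeq2 (adjusted p = 0.0555) and without any of the WT libraries except vehicle replicate 1 (adjusted p up to 0.127).

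Among the called genes of this list, *Spry1* and *Spry4* differed most between the lines. *Spry1* was 35.38, 38.96 and 39.76 CPM in WT cells with vehicle and 20.28, 23.68 and 19.97 CPM with PTH, against 3.83, 4.04 and 4.31 CPM in Y428F cells with vehicle and 2.38, 2.75 and 3.30 CPM with PTH. *Spry4* was 6.98, 6.60 and 8.42 CPM in WT cells with vehicle and 0.60, 0.10 and 0.38 CPM in Y428F cells with vehicle, the latter from 11, 2 and 7 counts. Each Y428F library was below each WT library for both genes. The log2 fold change between the lines was -3.22 ± 0.113 with vehicle and -2.92 ± 0.125 with PTH for *Spry1* (adjusted p = 5.38e-15 and 1.19e-13), and -4.34 ± 0.273 and -3.29 ± 0.232 for *Spry4* (adjusted p = 4.75e-11 and 2.98e-10). *Spry4* reached 0.89, 0.90 and 0.83 CPM with PTH in Y428F cells (log2 1.27 over vehicle, adjusted p = 0.0307), a call lost without any of these 6 libraries except vehicle replicate 1 (adjusted p up to 0.187). In all, 3 of the list were higher and 7 lower in Y428F cells with vehicle, and 4 and 7 with PTH (median log2 fold change -0.26 and -0.33), of 17 tested and beside 45.1% and 45.7% of all genes called. Among the others, the immediate early gene *Egr1* was lower by -1.25 with vehicle and -0.58 with PTH (adjusted p = 9.14e-08 and 0.000999), and the receptor antagonist *Il17rd* by -0.55 and -0.80 (adjusted p = 0.00109 and 3.39e-05). *Etv5*, an ETS factor downstream of FGF, was lower by -0.51 with vehicle and -0.90 with PTH (adjusted p = 0.00195 and 4.15e-06), and *Ier3* was higher by 0.44 and 1.35 (adjusted p = 0.00429 and 8.52e-09).

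**Figure D4:**
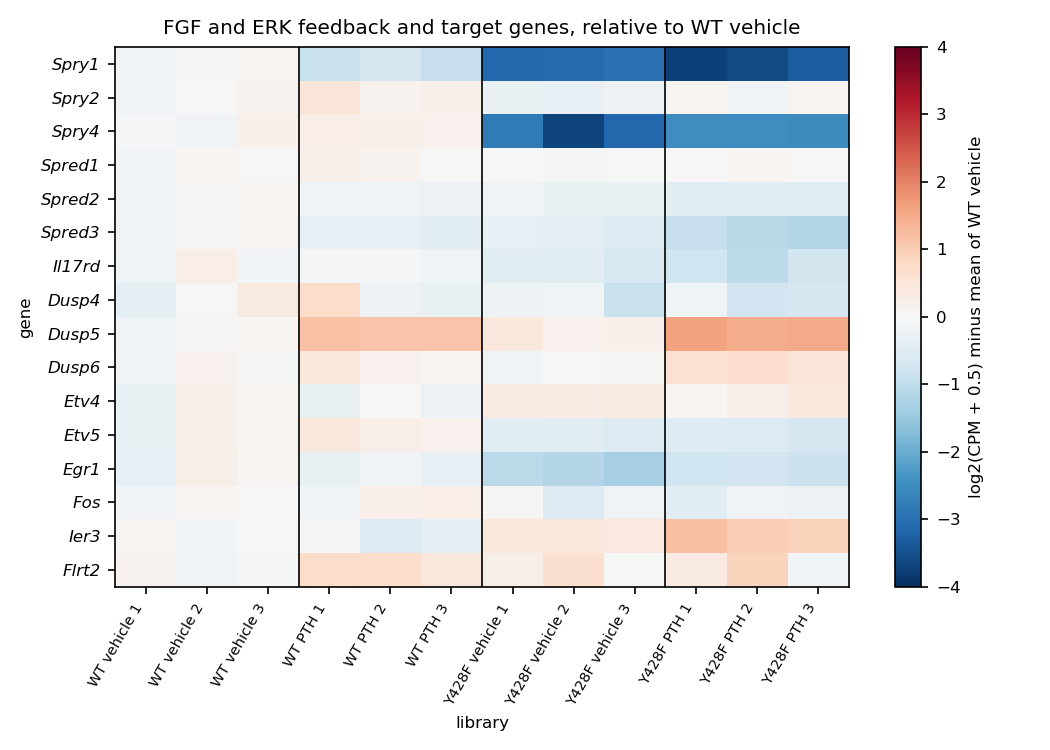
Level of the 16 FGF and ERK feedback and target genes whose mean was 0.5 CPM or more, drawn for each of the 12 libraries as log2(CPM + 0.5) minus the mean of the WT vehicle libraries. *Spry1* and *Spry4* are the darkest blue rows across the Y428F libraries, and *Dusp5* is red in the PTH libraries of both lines.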

How the data were processed

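The authors mapped the reads with STAR 2.7.10b to GRCm39 with the GENCODE basic annotation, quantified them with RSEM and deposited the expected counts of each gene in each library, without scaling for library size. The deposited matrix was the only file used, and reads were not analysed here. Expected counts were rounded to whole numbers. Of 56980 genes, 31817 had 0 counts in all 12 libraries. Library totals were 17127897 to 19057319 counts. Groups followed the library titles. Positions, exon lengths and overlaps came from GENCODE vM39 on GRCm39, to which 56236 identifiers were matched, and promoter sequences from RefSeq on GRCm38.p6.

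Tests were run in R 4.3.3 with edgeR 4.0.16 (quasi-likelihood test, TMM normalization, genes with at least 10 counts in total). PTH in WT cells was fitted on the 6 WT libraries (15583 genes) and the 4 other comparisons on all 12 (17691 genes). P-values were adjusted by the Benjamini-Hochberg method over the genes tested, with calls at an adjusted p under 0.05. The standard error is the log2 fold change divided by the square root of F. CPM are TMM-scaled counts in parts per 1000000, with means ± SD.

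The members and gene lists were chosen with earlier results of these data known. From each list at most the 4 called genes with the largest log2 fold change and a mean of at least 2 CPM were named per comparison, with any other FGF or FGF receptor gene of at least 0.5 CPM. Some genes that this rule would name are not reported here. Genes most like a member were the 3 nearest in centred log2 CPM for the 3 most abundant members, among genes of at least 2 CPM.

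The alternatives tried were the Wald test of DESeq2 1.42.0, its size factors or library totals as the scale, other filters and limits, the replicate number as a block, the longest transcript as length, and each library left out in turn. PTH in WT cells was also fitted on all 12 libraries. The edgeR test was also run on simulated counts, with the same spread for every gene and changes placed only in well-expressed genes. Those runs do not cover genes with few counts. Replicates differed by more than sampling noise (chi-square per degree of freedom 2.87 to 14.2 over 12 pairs), so none was counted as a duplicate. Read strand is not settled by the labels.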

Additional observations from a re-analysis of the deposited data

Results flagged for a closer look

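Of the FGF genes and listed pathway genes, 1 responded differently to PTH in the lines by the interaction test, where 0.413% of 17691 genes were called. *Ier3*, an immediate early gene induced by ERK, had 285, 224 and 260 counts in WT cells with vehicle and 243, 157 and 178 with PTH, and 347, 383 and 338 counts in Y428F cells with vehicle and 588, 502 and 490 with PTH. The log2 response in Y428F minus that in WT cells was 0.909 ± 0.169 (SE, 95% interval 0.56 to 1.26, adjusted p = 0.0169 by edgeR's quasi-likelihood test). The PTH libraries were all above the vehicle libraries in Y428F cells (log2 0.63, adjusted p = 0.000772), and the WT groups overlapped (log2 -0.28, adjusted p = 0.242). The call of the difference was lost without WT PTH replicate 2 or any 1 of the Y428F vehicle replicates 1, 2 and 3, with 0.81 to 0.92 on the log2 scale and adjusted p between 0.0578 and 0.0621.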

How the results depend on the processing

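The calls of the FGF genes kept their direction and side of the limit under DESeq2, its size factors, library totals, no filter on low counts and the replicate number as a block, with 2, 3, 5, 4 and 0 members called for PTH in WT cells, PTH in Y428F cells, the lines with vehicle, the lines with PTH and the difference in response. With at least 10 counts in every library, 3 members were called between the lines with vehicle, since *Fgf21* and *Fgfr3* no longer entered the test. With an edgeR adjusted p under 0.01 and a log2 beyond 0.3 there were also 3, now with *Fgf21* but without *Fgfr3* (adjusted p = 0.0111) and *Fgfrl1* (log2 -0.28). Leaving out 1 library at a time gave 4 to 5. The filter on counts gave 2 members for PTH in Y428F cells and 3 for the lines with PTH. The stricter limit gave 2 for PTH in Y428F cells. Over all genes, the stricter limit gave 821 calls for PTH in WT cells, 942 for PTH in Y428F cells and 22 for the difference in response, against 1837, 2192 and 73. For PTH in WT cells, the fit on all 12 libraries gave 2375 calls over all genes and 2 members called. The difference in response had 123 calls with DESeq2 and 216 with no filter, and the cause was not tested. Without 1 library the counts ran from 905 to 2211, from 1435 to 1817 and from 24 to 89. Directions that turned were of genes without a call, when 1 library was left out: log2 fold changes ran from -0.066 to 0.026 for *Fgfrl1* with PTH in WT cells, from -0.37 to 0.0091 for *Fgfr3* with PTH in Y428F cells, and from -0.026 to 0.12 for *Fgf2* between the lines with PTH. For the difference in response they ran from -0.20 to 0.019 for *Fgf2*, -0.21 to 0.42 for *Fgf21*, -0.14 to 0.026 for *Fgfr1* and -0.084 to 0.068 for *Fgfr2*. With the longest transcript in place of merged exons, the WT vehicle levels per kb were 10.8 for *Fgf7*, 31.8 for *Fgfr1*, 9.73 for *Fgfr2* and 11.1 for *Fgfrl1*. The other groups were given on merged exons only. Another scale moved the median of all genes by less than 0.1.

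Same-numbered libraries did not deviate together over the genes as a whole (mean correlation 0.0019, -0.031 to 0.037 over 18 pairs). This does not show whether they shared a culture or a day. With the replicate number as a block, 1643, 2273, 7976, 8027 and 76 genes were called in the order of comparisons above. Among the genes named here, the block ended the calls of *Ptbp2* with PTH in Y428F cells (adjusted p = 0.0501) and of *Phex* with PTH in WT cells. At this depth *Fgf10*, *Fgf18* and the klotho genes could not be tested.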

Other observations

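Regulators of the choice between the IIIb and IIIc exons of FGF receptors were also listed. *Esrp1* and *Esrp2*, epithelial splicing factors known to promote the IIIb form, were at or below 0.107 CPM in each group mean. *Ptbp1*, a polypyrimidine tract binding protein known to repress the IIIb exon of *Fgfr2*, was abundant and higher in Y428F cells, at 444 ± 22.8 against 299 ± 13.1 CPM with vehicle (SD, n = 3, log2 0.57 ± 0.0651, adjusted p = 3.22e-07) and at 500 ± 15.6 against 337 ± 31.1 CPM with PTH (log2 0.57, adjusted p = 3.38e-07). *Ptbp2* was lower in Y428F cells by -0.42 with vehicle and -0.37 with PTH (adjusted p = 0.00014 and 0.000404), and *Rbfox2* by -0.26 and -0.29 (adjusted p = 0.000866 and 0.000298). None of the 3 genes tested was called with PTH in WT cells by edgeR or DESeq2, where edgeR called 11.8% of all genes. Of the 3 genes, 2 had an unadjusted p under 0.05, and leaving out 1 library gave 0 to 1 calls. *Ptbp2* had a log2 fold change of 0.24 with PTH in Y428F cells (adjusted p = 0.0480), which was lost without any 1 of the 6 Y428F libraries (adjusted p up to 0.213) and with library totals as the scale (0.111).

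The genes whose pattern over the 12 libraries was most like that of the abundant members were named by the root mean square difference of centred log2 CPM among 11217 genes. For *Fgfr1* these were *Dctn1* at 0.0395, *Sh3pxd2b* at 0.0556 and *Inf2* at 0.0583, against a median of 0.317 over all genes compared. For *Fgfrl1* they were *2610005L07Rik* at 0.0514, *Ufsp2* at 0.0553 and *Tpcn2* at 0.0580 (median 0.274). For *Fgfr2* they were *Tent4a* at 0.0812, *Cdr2* at 0.0899 and *Taf5l* at 0.0899 (median 0.348). The 12 points share line and treatment.

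Of the markers of other cell types, between the lines with vehicle 2 of 4 tested hematopoietic, 1 of 4 endothelial and 3 of 3 epithelial markers were higher in Y428F cells, 1 of 3 adipocyte markers was lower and 1 of 2 osteoblast markers was higher, where 45.1% of all genes were called. The 3 epithelial calls became 2 with DESeq2 and 2 without WT vehicle replicate 2 or 3 or Y428F vehicle replicate 1 or 2, none of these markers had 10 counts in every library, and *Cldn4*, with at most 1 count in any WT library, reached the minimum through the Y428F libraries alone. With PTH, 1 of 9 tested stromal markers was called lower in WT cells (1 to 3 calls when 1 library was left out) and 2 of 9 in Y428F cells (1 to 4 calls). Of all genes, 11.8% were called with PTH in WT cells (4.91% lower) and 12.4% in Y428F cells (5.78% lower). The call of *Col1a1* in Y428F cells was lost without vehicle replicate 1 or PTH replicate 1 (adjusted p up to 0.124). *Phex*, with 12 to 18 counts in the WT vehicle and 27 to 33 in the WT PTH libraries, was called higher with PTH in WT cells (log2 1.15 ± 0.327, adjusted p = 0.0371), and that call was lost with DESeq2, with the replicate number as a block and without any 1 of the 6 WT libraries.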
